A study of Mus musculus with 2 samples.

Results

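Ventral cells of the cultured base of the neonatal mouse heart that carried RNA of Cd200, Cxcl12 and Angpt2 together, with little RNA of Fmod, were described here. A cell was a barcode with at least 8000 unique molecular identifiers (UMIs, each standing for 1 captured RNA molecule) of which at most 20% were mitochondrial. A member was a ventral cell with at least 1 UMI each of Cd200, Cxcl12 and Angpt2 and fewer than 3 UMIs of Fmod. There were 3026 members among 10649 ventral cells, and the whole series held 19575 cells. Members were chosen by the measured UMIs of those 4 genes, whose levels are therefore given as a description.

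Hearts of 15 C57Bl6 mice, male and female and 3 days old, were dissected into a dorsal and a ventral part. The ventral tissue held the first stretch of the aorta, the pulmonary artery and the root of the outflow tract, and the dorsal tissue held the sinoatrial node, the ganglia of the heart and the pulmonary veins. Cells of all hearts were pooled for each side, grown as adherent cultures for 5 days, released with trypsin and sequenced as 1 library per side with 10x Genomics 3' v3 chemistry. Both sides shared the strain, the age, the culture and the trypsin step, and only cells that attached and survived in culture could be measured. With 1 library per side there was no replicate, so no test was possible and every interval below is a 95% interval for counting error only.

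Elastic arteries owe their recoil to layers of elastin that smooth muscle cells and neighbouring fibroblasts lay down around birth. Elastin is deposited on fibrillin microfibrils with the help of fibulins and is cross-linked by lysyl oxidases. Cxcl12 is a chemokine of stromal and perivascular cells that acts through the receptor Cxcr4, while the scavenger receptor Ackr3 takes it up. Angpt2 is a ligand of the endothelial receptor Tek that acts mostly as an antagonist of Angpt1. Cd200 is a membrane glycoprotein whose receptor Cd200r1 restrains myeloid cells.

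The genes of the rule lie on different chromosomes of mm10. Cd200 (ENSMUSG00000022661) lies on the minus strand at chr16:45382135-45409053, Cxcl12 (ENSMUSG00000061353) on the plus strand at chr6:117168535-117181367 and Angpt2 (ENSMUSG00000031465) on the minus strand at chr8:18690263-18741562, by GENCODE M21. Fmod (ENSMUSG00000041559), which encodes the tendon proteoglycan fibromodulin, lies on the plus strand at chr1:134037254-134048277. Promoters are shown for Cd200 and Cxcl12 only, because the promoter source used held no entry for Angpt2, the other required gene. Each sequence gives the 250 bases before the transcription start from RefSeq on GRCm38.p6, at chr16:45409054-45409303 on the minus strand for Cd200 and at chr6:117168285-117168534 on the plus strand for Cxcl12. Capitals mark matches, on either strand, to the GC box GGGCGG, the GATA core AGATAA, the TEAD core GGAATG, the TATA box TATAAA or the forkhead core TAAACA.
Cd200: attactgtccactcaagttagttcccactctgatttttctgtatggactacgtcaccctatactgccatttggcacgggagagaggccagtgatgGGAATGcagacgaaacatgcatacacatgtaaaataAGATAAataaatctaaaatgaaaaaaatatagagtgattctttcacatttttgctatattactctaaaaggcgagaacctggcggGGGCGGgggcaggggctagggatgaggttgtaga
Cxcl12: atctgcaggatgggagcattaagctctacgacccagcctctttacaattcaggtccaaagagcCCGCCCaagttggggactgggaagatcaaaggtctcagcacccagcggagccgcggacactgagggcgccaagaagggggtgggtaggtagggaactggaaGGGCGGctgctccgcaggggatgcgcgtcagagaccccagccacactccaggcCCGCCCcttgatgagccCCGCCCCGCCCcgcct

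The Cd200 promoter held 1 GC box, 1 GATA core and 1 TEAD core. The Cxcl12 promoter held 5 GC boxes, and the 2 nearest the start overlap. Neither window held TATAAA or TAAACA. Among 32851 mouse promoter windows of the same length, 32.7% held GGGCGG, 9.99% held AGATAA, 12.6% held GGAATG, 12.4% held TATAAA and 12.0% held TAAACA. A match describes the letters of the window and shows no binding.

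Members made up 28.4% of ventral cells (27.6 to 29.3, Clopper-Pearson). Cxcl12 was found in 77.6% of ventral cells, Cd200 in 65.8% and Angpt2 in 42.0%, so Angpt2 was the requirement that most cells missed. All 3 genes were found in 3357 cells, and the limit on Fmod removed 331 of them. Members had a median of 21324.5 UMIs and the 7623 other ventral cells a median of 21517. Median mitochondrial shares were 4.14% and 4.11%, so depth and mitochondrial content were close in both sets.

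Expression is given below as CPM, a gene's share of all UMIs in a set of cells on the customary counts scale of sequencing data. Cd200 stood at 287 CPM in members and 76.3 CPM in the other ventral cells. Cxcl12 stood at 1259 against 337 CPM, Angpt2 at 127 against 16.4 CPM and Fmod at 12.6 against 76.6 CPM. These differences were built into the choice.

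Many members lay close to a threshold. Exactly 1 Angpt2 UMI was found in 1005 members, and 1260 members had exactly 1 UMI of at least 1 of the 3 required genes. Just outside the rule lay 2011 cells that lacked only Angpt2, with 712 CPM of Cxcl12 and 164 CPM of Cd200. A further 460 cells lacked only Cd200 and 291 lacked only Cxcl12. On the Fmod side, 705 members with 1 or 2 Fmod UMIs had 11050 CPM of Eln, the elastin gene, while 202 excluded cells with 3 to 5 Fmod UMIs had 8817 CPM. The 2321 members without an Fmod UMI had 14097 CPM of Eln.

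Free RNA in the droplets carried the same genes. Barcodes with 1 to 100 UMIs, taken as free RNA, contained 701 CPM of Cxcl12, 148 CPM of Cd200 and 54.0 CPM of Angpt2. When each cell was thinned to 8000 UMIs, 35.9% of 145 macrophage marker cells had a Cxcl12 UMI, 17.2% a Cd200 UMI and 7.59% an Angpt2 UMI. Before thinning these shares were 54.5%, 33.1% and 17.9%, at a median of 26859 UMIs. In the thinned non-members the shares were 49.9%, 33.5% and 10.2%, against 68.7%, 52.2% and 18.9% at full depth. In the thinned members they were 92.2%, 82.7% and 65.5%, shares that the rule fixed to be high. After thinning, 1683 cells (15.8%) met the rule, and 1609 of these were members at full depth.

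**Figure D1:**
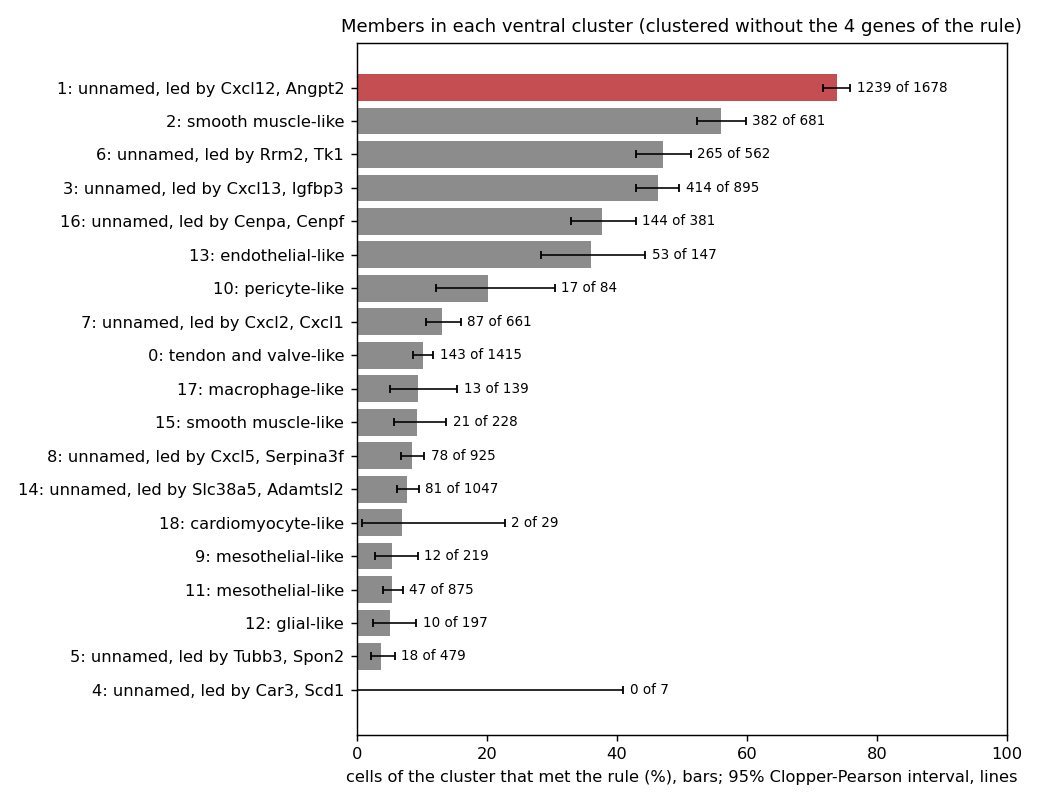
Share of each ventral cluster that met the rule, with bars for the percentage and lines for 95% Clopper-Pearson intervals. Labels give the cluster, its marker-based name or its leading genes, and the members among its cells. The unnamed cluster 1 stands highest at 73.8%, and 18 of the 19 clusters held at least 1 member.

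Members were concentrated in 1 group of cells but were not a single cell type. Ventral cells were clustered with the 4 genes of the rule left out of the variable genes, which gave 19 clusters. Cluster 1 held 1678 cells, of which 1239 were members (73.8%, 71.7 to 75.9), and these were 40.9% of all members. Its 10 leading genes were Cxcl12, Angpt2, Cd200, Fmo2, Fhl1, Fgf18, Ackr3, Eln, Smoc1 and Pkdcc, and no cell type marker list gave it a name. Smooth muscle-like clusters 2 and 15 held 403 members (13.3% of members), of which 382 lay in cluster 2. Another 409 members (13.5%) lay in 2 clusters led by cell cycle genes such as Rrm2 and Cenpf. Cluster 3, unnamed and led by Cxcl13, Igfbp3 and Ptx3, held 414 members among 895 cells (46.3%).

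Smaller numbers of members lay in clusters of other cell types. Endothelial-like cluster 13, led by Nts, Emcn and Cdh5, held 53 members among 147 cells (36.1%, 28.3 to 44.4), which was 1.75% of all members. Tendon and valve-like cluster 0 held 143 members among 1415 cells. Mesothelial-like clusters held 59 members, 47 of them in cluster 11 and 12 in cluster 9. The 10 leading genes of cluster 9 held 7 cell cycle genes, and the other 3 were mesothelial markers (Lrrn4, Upk1b and Upk3b). Macrophage-like cells held 13 members, glial-like cells 10, pericyte-like cells 17 and cardiomyocyte-like cells 2. Members of the mesothelial-like, macrophage-like and glial-like clusters had a median of 37668.5 UMIs, against 25359.5 in the other cells of these clusters. Scrublet, which scores barcodes for a mixture of cells, marked 57.3% of these 82 members and 9.35% of the other cells. Over all members it marked 7.96% (241 cells), against 5.05% of non-members and 4.84% of the members in cluster 1. It marked 20.8% of the endothelial-like members (11 of 53), 11.2% of the cell cycle members and 4.71% of the smooth muscle-like members. The endothelial-like members had a median of 27853 UMIs, against 18924 in the whole of cluster 13.

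Marker genes were also counted cell by cell, requiring at least 3 genes of a list with at least 2 UMIs each. Fibroblast markers passed in 99.4% of members and 97.9% of other ventral cells, and smooth muscle markers in 74.6% and 56.6%. Pericyte markers passed in 9.62% and 5.19%. Mesothelial markers passed in 1.75% of members and 12.6% of the others. Endothelial markers passed in 57 members (1.88%) and 96 others (1.26%). Neuron, epithelial and lymphocyte or neutrophil markers passed in 0 members. Since nearly every ventral cell passed the fibroblast criterion, it set no member apart, and the median log2 ratio of the 10 fibroblast markers between members and other cells was -0.22. The elastin and Fbln5 markers given for arterial-base mesenchyme were higher in members, but no position in the tissue was measured, and the cells are called by their rule below.

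The first comparison set members against the 7623 other ventral cells, gene by gene. Among 5451 genes with at least 20 CPM on either side and outside the rule, 49 genes (0.899%) were at least 2-fold higher in members and 77 genes (1.41%) at least 2-fold lower. The median log2 ratio of all these genes was -0.05. A log2 ratio is the CPM in members over the CPM in the other cells, so 1 means 2-fold, and brackets give its exact conditional binomial interval. All genes of these cells stand beside genes that chose the members, so the ratios describe the members and are no test of them.

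Elastin RNA was more than 2-fold higher in members. Eln (ENSMUSG00000029675, chr5:134702593-134747323) reached 13298 CPM in them and 5772 CPM in the others, for a log2 ratio of 1.20 (1.20 to 1.21). In cells thinned to 8000 UMIs, members had a median of 113 Eln UMIs, with 15 at the 10th and 221 at the 90th percentile, and the others had a median of 25. Members of cluster 1 had a median of 144, smooth muscle-like members 197 and endothelial-like members 3. Free RNA held 9441 CPM of Eln, so nearly every cell had at least 1 UMI and shares of positive cells said little about this gene. Fbln5 (ENSMUSG00000021186, chr12:101746565-101819055) encodes fibulin 5, which ties elastin to cells and microfibrils. It had 1038 CPM in members and 466 CPM in the others (1.16, 1.14 to 1.17). Against other ventral cells with smooth muscle markers, ratios were smaller, at 0.91 for Eln and 0.85 for Fbln5.

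The elastic fibre genes did not move as a block. Of 21 listed genes, 19 reached 20 CPM, 4 were at least 2-fold higher and 1 at least 2-fold lower, with a median log2 ratio of 0.09 against -0.05 over all genes. Over all genes 0.899% were at least 2-fold higher and 1.41% lower. Eln and Fbln5 were markers given beforehand for arterial-base mesenchyme, so nothing is read from the count. The higher members were Eln, Fbln5, the microfibril glycoprotein Mfap5 (1.21, 295 against 127 CPM) and Ltbp1 (1.28, 66.6 against 27.5 CPM), which anchors latent TGF-beta in the matrix. Lysyl oxidase Lox stood at 1257 against 886 CPM (0.50), fibrillin Fbn1 at 337 against 307 CPM (0.14) and the lysyl oxidase relative Loxl1 at 292 against 285 CPM (0.04). Efemp1, which encodes fibulin 3, was the lower gene at 24.1 against 49.9 CPM (-1.05). Its ratio was 0.42 when all cells of named clusters were left out.

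Collagens and most other matrix genes were close to level. Of 15 collagen genes at 20 CPM or more, 0 were 2-fold higher or lower and their median was -0.04, with Col1a1 at 3035 against 2750 CPM. The count of 0 is near the share over all genes (0.899% higher and 1.41% lower). Among 17 matrix glycoproteins and proteoglycans, tenascin Tnc was 2-fold higher (86.0 against 37.4 CPM, 1.20) and Prelp 2-fold lower (39.7 against 107 CPM, -1.42). The calcification inhibitor Mgp stood at 10186 against 6458 CPM (0.66). Among 11 matrix proteases and inhibitors, Timp3 was 2-fold lower, at 141 against 490 CPM (-1.80, -1.83 to -1.77). Timp3 was also a leading gene of tendon and valve-like cluster 0, and its ratio was -0.77 when all cells of named clusters were left out.

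The 15 highest ratios belonged to genes of different cells. Some of them reached 20 CPM only in members, such as Prss35, Smoc1, Ror1 and Hmcn1 here and Nts, Cdh5 and Sost below. The same holds for Ackr3, Foxc1 and Pdgfd, which are given further on. The filter favoured a higher ratio for such genes, so their ratios are a description. Prss35, a serine protease gene, stood at 22.2 against 6.12 CPM (1.86, 1.75 to 1.97). The matricellular gene Smoc1 stood at 24.4 against 7.24 CPM (1.75), and Nov, which encodes the CCN family protein Ccn3, at 170 against 51.0 CPM (1.73, 1.69 to 1.77). The LIM-domain gene Fhl1 stood at 278 against 95.2 CPM (1.55), the Wnt5a receptor Ror1 at 39.3 against 13.6 CPM (1.53) and hemicentin Hmcn1 at 22.9 against 7.98 CPM (1.52). Aoc3, a vascular amine oxidase, stood at 1.41, the secreted kinase Pkdcc at 1.39, Atp10a at 1.38, Glipr1 at 1.38 and Map3k7cl at 1.37. Of Fhl1 UMIs in members, 50.6% came from cluster 1, and Smoc1 and Eln had 49.4% there.

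Other high ratios rested on small subsets. Nts, which encodes the peptide neurotensin, had 35.7 CPM in members and 5.73 CPM in the others (2.64, 2.53 to 2.74). The 53 endothelial-like members held 97.5% of its UMIs in members, and without the endothelial-like cluster the ratio was 1.01. The endothelial cadherin Cdh5 stood at 20.2 against 7.75 CPM (1.38), with 96.3% of its UMIs in those 53 members and a ratio of 0.59 without the cluster. Without that cluster both genes lay under 20 CPM in members and in the others, so these ratios rest on the small remainder of UMIs. With cells thinned to 8000 UMIs before the rule was applied, the ratios turned to -0.01 for Nts and -0.95 for Cdh5. Sost, which encodes the Wnt inhibitor sclerostin, stood at 35.2 against 11.6 CPM (1.60), and smooth muscle-like members held 74.2% of its UMIs. For the protease gene Adamts8 (1.45) that share was 65.5%.

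**Figure D2:**
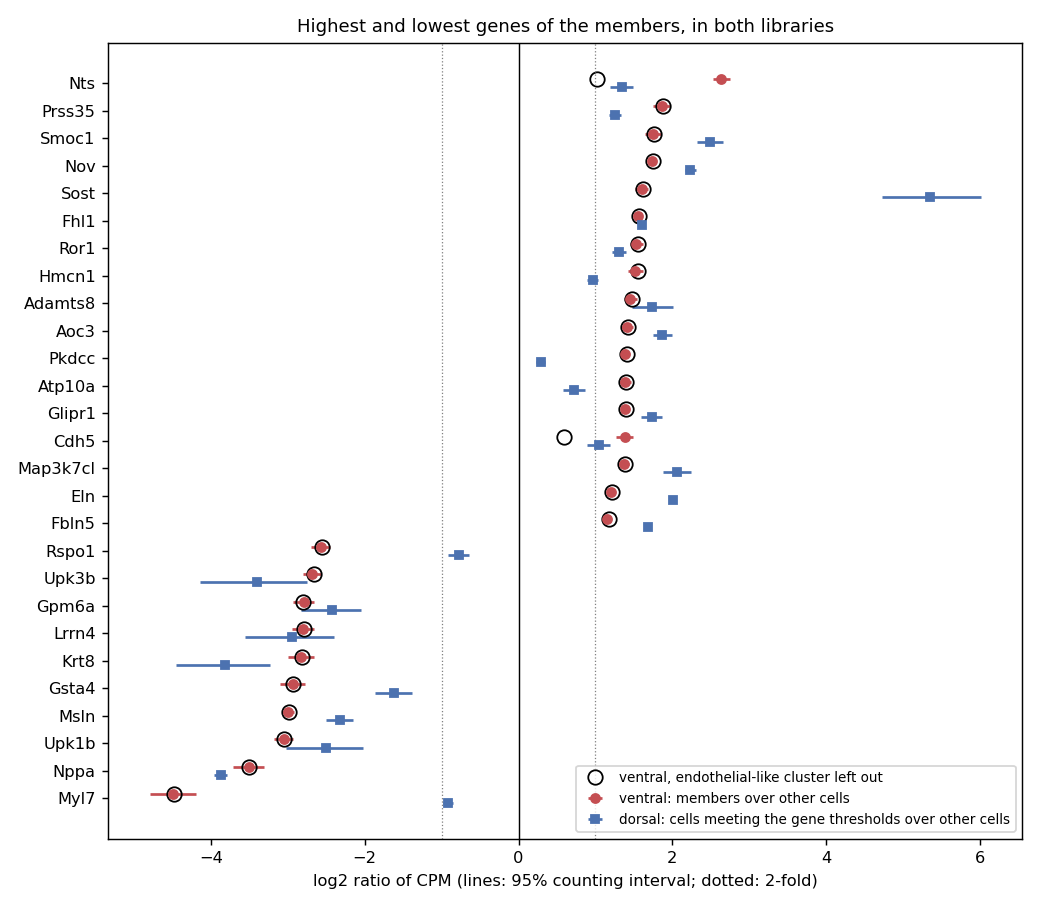
Log2 ratios of the 15 highest and 10 lowest genes, with Eln and Fbln5, on a log2 axis. Red points are ventral members over other ventral cells, open circles the same without the endothelial-like cluster, blue squares dorsal cells that met the gene thresholds over other dorsal cells, and lines 95% counting intervals. Nts and Cdh5 are the genes whose open circles stand clearly left of the red points, at 1.01 and 0.59.

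The lowest ratios were led by genes of heart muscle and of mesothelium, the covering layer of the heart. Myl7, an atrial myosin light chain, stood at 1.34 against 30.03 CPM (-4.49, -4.79 to -4.19), and the atrial peptide Nppa at 2.82 against 32.1 CPM (-3.51). Mesothelin Msln stood at 20.3 against 162 CPM (-3.00), the uroplakins Upk1b at -3.05 and Upk3b at -2.68, keratin Krt8 at -2.83, Lrrn4 at -2.80 and Rspo1 at -2.57. All 7 mesothelial, all 6 macrophage and all 3 cardiomyocyte markers that reached 20 CPM were at least 2-fold lower, against 1.41% of all genes. Some of them, such as Myl7 and Nppa, reached 20 CPM only in the other cells. The filter favoured a lower ratio for such genes, so nothing is read from these counts. The other lowest genes were the glutathione transferase Gsta4 (-2.94) and Gpm6a (-2.79). When all cells of named clusters were left out, Lrrn4 stood at 0.21 and Upk3b at 0.05. In the same setting Msln (-0.09), Upk1b (-0.24), Gpm6a (-0.24), Krt8 (-0.29), Nppa (-0.35) and Myl7 (-0.53) were no longer 2-fold lower.

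Smooth muscle contractile genes had a median above that of all genes. Of 12 genes that reached 20 CPM, 3 were at least 2-fold higher and 0 lower, with a median log2 ratio of 0.46. Over all genes 0.899% were at least 2-fold higher and 1.41% lower, with a median of -0.05. The higher genes were the myosin heavy chain Myh11 (77.5 against 35.5 CPM, 1.13), calponin Cnn1 (206 against 97.8 CPM, 1.08) and leiomodin Lmod1 (131 against 61.6 CPM, 1.09). Smooth muscle actin Acta2 stood at 7234 against 5248 CPM (0.46) and Tagln at 3372 against 2800 CPM (0.27). Tropomyosin Tpm1 was nearly level (0.10), and the myosin kinase gene Mylk stood at 55.5 against 76.0 CPM (-0.45). In smooth muscle-like members Myh11 reached 558 CPM, against 17.3 CPM in members of cluster 1. Its ratio ranged from 0.41, with at least 2 UMIs of each required gene, to 3.12, against other cells with Pdgfra. Against other cells with smooth muscle markers, ratios were 0.38 for Cnn1, 0.44 for Lmod1, 0.01 for Acta2 and -0.14 for Tagln.

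Of the receptors of Cxcl12, Ackr3 was found in members of cluster 1 and Cxcr4 was near 0 there. Cxcr4 stood at 1.94 CPM in members and 0.72 CPM in the others, with 81.6 CPM in endothelial-like members and 0.07 CPM in members of cluster 1. Ackr3 was the 2-fold higher gene of the Cxcl12 axis, at 26.8 against 10.8 CPM (1.31, 1.22 to 1.40). It was present in members of cluster 1 (40.7 CPM) and in endothelial-like members (46.9 CPM), and an Ackr3 UMI was found in 30.9% of members and 13.3% of others. In thinned cells these shares were 16.3% and 6.64%, with 2.07% of macrophage marker cells. Dpp4, a protease that cuts Cxcl12, stood at 5.18 against 23.6 CPM (-2.19).

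Tek, the receptor of Angpt2, stood at 1.70 CPM in members and 2.47 CPM in the others, and its relative Tie1 at 3.31 against 1.47 CPM. Endothelial-like members held 50.8 CPM of Tek and 145 CPM of Tie1, against 0.26 and 0.29 CPM in members of cluster 1. Angpt1, the agonist of Tek, stood at 1.40 against 3.14 CPM. Of 2 other angiopoietin and Tie genes at 20 CPM or more, Angptl2 was 2-fold lower (9.96 against 22.7 CPM, -1.19). Cd200r1 stood at 0.92 against 3.23 CPM, and 79.3% of macrophage marker cells had its UMI, against 1.12% of members. In thinned cells these shares were 42.8% and 0.26%.

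Growth factor genes differed singly. Fgf18 stood at 59.1 against 24.3 CPM (1.28, 1.22 to 1.34), 1 of 5 FGF genes that reached 20 CPM. Platelet-derived growth factor Pdgfd stood at 38.1 against 18.3 CPM (1.06), 1 of 11 vascular growth factor genes. The Wnt agonist Rspo3 stood at 76.7 against 37.5 CPM (1.03), while Rspo1 was the lower of 6 Wnt genes. Igf1 (20.1 against 49.3 CPM, -1.29) and Igfbp6 (7.83 against 36.2 CPM, -2.21) were 2-fold lower among 11 insulin-like growth factor genes, and Igfbp6 stood at -0.67 without all cells of named clusters. Tgfb2 stood at 300 against 200 CPM (0.58), and among 10 TGF-beta and YAP genes Ankrd1 was 2-fold lower (-1.18). None of 9 BMP genes, 4 Notch genes, 3 Hedgehog genes, 2 endothelin genes or 4 semaphorin and plexin genes differed 2-fold. Over all genes 0.899% were at least 2-fold higher and 1.41% lower, so a count of 0 sets no list this short apart. Of 3 retinoic acid genes Aldh1a1 was 2-fold lower, at 80.2 against 162 CPM (-1.02).

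Of 9 chemokine and stromal cytokine genes other than Cxcl12 that reached 20 CPM, 0 differed 2-fold. That count is near the share over all genes (0.899% higher and 1.41% lower). Their ratios ran from -0.98 to -0.52, with a median of -0.80 against -0.05 over all genes. How many of all genes lay below 0 was not counted, so nothing is read from the shared sign. The lowest, Cxcl5 (-0.98), stood at 0.04 against other cells with smooth muscle markers. Ccl2, which attracts monocytes, stood at 781 against 1362 CPM (-0.80) and Ccl7 at 246 against 432 CPM (-0.81). Cxcl1, which attracts neutrophils, stood at 201 against 289 CPM (-0.52). Saa3, an acute-phase amyloid gene, stood at 247 against 1245 CPM (-2.34), and it was also among the leading genes of mesothelial-like cluster 11. Immediate early (9 genes), glycolysis and hypoxia (10), interferon (4) and complement genes (5) had 0 genes at 2-fold in either direction. These counts too are near the share over all genes.

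Transcription factors of the heart and mesenchyme were measured for 17 of 44 listed genes. Foxc1, a forkhead factor needed for the aortic arch and the outflow tract, stood at 29.4 against 12.6 CPM (1.22, 1.13 to 1.30), and its relative Foxc2 at 41.5 against 27.4 CPM (0.60). Tbx20 stood at 26.1 against 61.4 CPM (-1.23) and Tcf21, a factor of heart fibroblasts, at 57.6 against 124 CPM (-1.11). Mef2c stood at 137 against 93.4 CPM (0.55). Isl1, the gene named in the study's title, stood at 2.61 CPM in members and 1.07 CPM in the others, and 5.16% of members and 2.14% of the others had a UMI. In thinned cells that share was 1.59% in members, 0.87% in the others and 0.69% in macrophage marker cells.

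Cell cycle genes were concentrated in a subset. Of 11 G2 and M phase genes 0 differed 2-fold, with a median log2 ratio of 0.29, and Top2a stood at 57.8 against 46.5 CPM. Among members, those of the cell cycle clusters held 351 CPM of Top2a and those of cluster 1 held 2.23 CPM. Of 7 S phase genes 0 differed 2-fold, with a median of 0.03. Both counts of 0 are near the share over all genes (0.899% higher and 1.41% lower). Members made up 43.4% of the cells in the cell cycle clusters and 28.4% of all ventral cells. Mesothelial-like cluster 9, also led by cell cycle genes, was not counted among these clusters. It held 12 members among 219 cells (5.48%). Without the cell cycle clusters, but with cluster 9 kept, every G2 and M phase ratio was below 0, from -2.23 (Nusap1) to -0.95 (Cdk1). Most cells of cluster 9 were not members, so this setting left cycling cells mainly among the others. Nothing is read from it about cycling in members. S phase ratios then ran from -1.40 (Rrm2) to -0.08 (Mcm6).

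**Figure D3:**
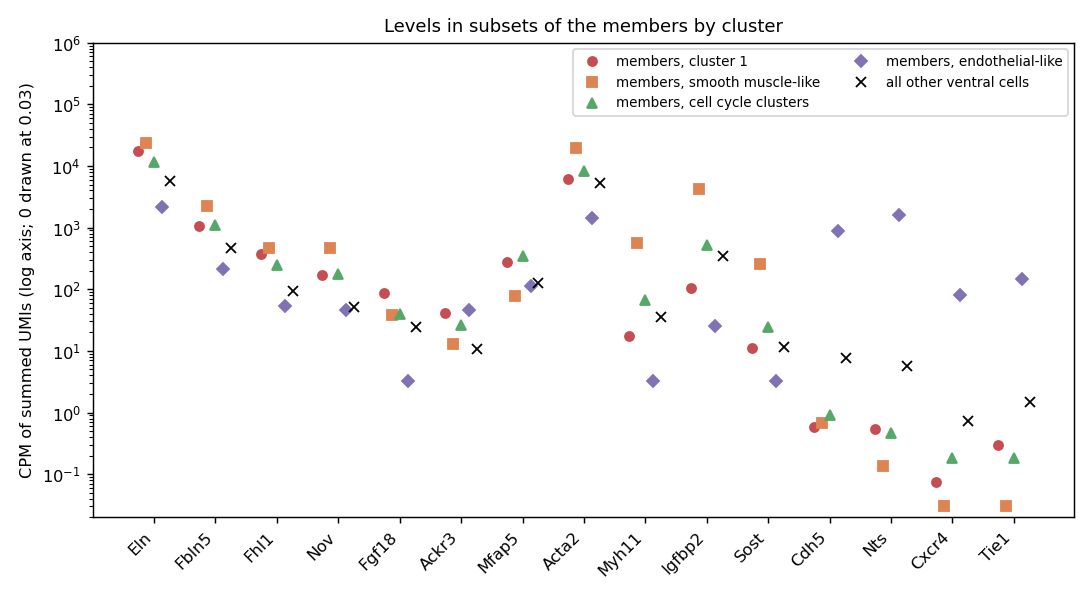
Levels of 15 genes in members of 4 kinds of cluster and in all other ventral cells, as CPM of summed UMIs on a log axis, with 0 drawn at 0.03. Eln and Fbln5 stand highest in smooth muscle-like members, while Cdh5, Nts, Cxcr4 and Tie1 stand at 81.6 to 1601 CPM in endothelial-like members and at or below 0.92 CPM in the other subsets of members.

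Levels differed widely between subsets of the members. Eln stood at 17229 CPM in members of cluster 1, 23948 CPM in smooth muscle-like members, 11554 CPM in members of cell cycle clusters and 2167 CPM in endothelial-like members. Fbln5 had the same order of the top and bottom sets, at 1061, 2268, 1102 and 215 CPM. Igfbp2, which binds insulin-like growth factors, stood at 105 CPM in cluster 1 and 4241 CPM in smooth muscle-like members. Sost stood at 11.1 and 256 CPM and Acta2 at 6078 and 19289 CPM in the same pair. Fgf18 showed the reverse order, with 86.9 CPM in cluster 1 and 37.9 CPM in smooth muscle-like members, as did Mfap5 with 273 and 79.0 CPM. Smooth muscle-like members had a lower median depth, 16131 against 20153 UMIs.

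Within cluster 1, few genes differed between cells inside and outside the rule. Clustering had grouped these cells by their likeness over the variable genes, so a low count was built in and is a description. Among 5106 genes, 0 (0%) were at least 2-fold higher in the 1239 members than in the 439 non-members, and 5 (0.0979%) were at least 2-fold lower. These were the growth arrest gene Gas1 (23.0 against 71.96 CPM, -1.65), Dlk1 (9.64 against 28.1 CPM, -1.55), tissue factor F3 (-1.27), pentraxin Ptx3 (146 against 325 CPM, -1.16) and Igfbp3 (-1.04). Their names were chosen after their values were seen. Dlk1 and F3 reached 20 CPM only in the non-members, so the filter favoured a lower ratio for them. Eln stood at 17229 against 13028 CPM and Fgf18 at 86.9 against 59.1 CPM. Of the 439 non-members, 332 had no Angpt2 UMI, 112 no Cd200 UMI, 20 no Cxcl12 UMI and 43 had at least 3 Fmod UMIs.

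Cells were then sorted by their number of Angpt2 UMIs, a value the rule used, so the levels below are a description. The share of cells in cluster 1 was 13.6% among the 2011 cells that lacked only Angpt2. It was 30.6% among members with 1 UMI (1005 cells), 40.2% with 2 or 3 (1080 cells) and 52.8% with 4 or more (941 cells). Over the same 4 classes Fgf18 stood at 27.5, 45.3, 58.6 and 72.5 CPM, Ackr3 at 14.6, 18.3, 26.7 and 34.9 CPM, and Mfap5 at 160, 230, 277 and 372 CPM. Eln levelled off, at 8599, 12707, 13556 and 13589 CPM. Saa3 went the other way, from 1577 to 432, 218 and 103 CPM. Median depth was 21474, 20451, 20355 and 23182 UMIs.

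Genes of the small subsets did not follow that order. Sost stood at 53.9 CPM with 1 Angpt2 UMI and 15.6 CPM with 4 or more. Nts stood at 47.2 and 55.1 CPM in the classes of 1 and of 2 or 3 UMIs and at 5.34 CPM in the class of 4 or more.

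**Figure D4:**
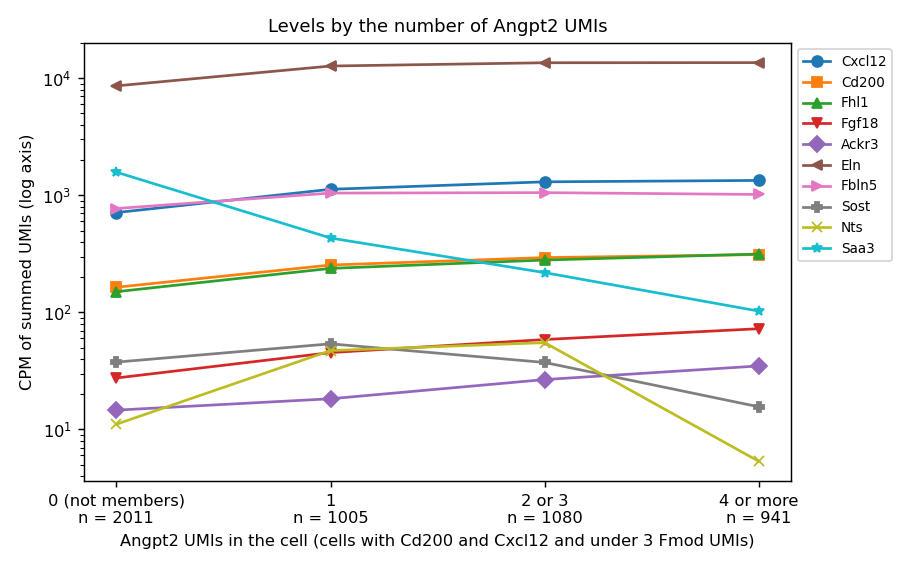
CPM of 10 genes (log axis) against the number of Angpt2 UMIs per cell, for ventral cells that met the other thresholds. The first class, with 0 UMIs, holds 2011 cells that are not members. Fgf18 and Ackr3 climb through all 4 classes, Eln and Fbln5 are level from the second class on, and Saa3 goes from 1577 to 103 CPM.

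The same gene thresholds were then applied to the dorsal library, which the rule did not use. They selected 1439 of 8926 dorsal cells (16.1%, 15.4 to 16.9), with a median of 18966 UMIs. Among 5700 dorsal genes, 78 (1.37%) were at least 2-fold higher in these cells than in the other dorsal cells and 55 (0.965%) at least 2-fold lower. The median log2 ratio of all these dorsal genes was -0.04. Of the 49 genes that were 2-fold higher in ventral members, 34 reached 20 CPM in both libraries. Of those 34 genes, 33 had a dorsal ratio above 0, 18 were also 2-fold higher and 0 were 2-fold lower. Of the 77 lower genes, 54 reached 20 CPM in both libraries. Of those 54 genes, 5 had a dorsal ratio above 0, 17 were also 2-fold lower and 0 were 2-fold higher.

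Eln, Fbln5, Rgs5, Igfbp2 and Nov had larger ratios in the dorsal library. Eln had 8184 CPM in the selected and 2035 CPM in the other dorsal cells, for a ratio of 2.01 beside 1.20 on the ventral side. Fbln5 stood at 387 against 120 CPM, 1.69 beside 1.16. Rgs5, a pericyte gene, stood at 91.0 against 9.23 CPM (3.30 beside 1.02), Igfbp2 at 356 against 59.7 CPM (2.58 beside 0.76) and Nov at 89.1 against 18.9 CPM (2.23 beside 1.73). Fhl1 (1.60 beside 1.55), Fgf18 (1.60 beside 1.28), Foxc1 (1.47 beside 1.22) and Ackr3 (1.20 beside 1.31) were close in both. Calponin Cnn1 had a smaller ratio (0.47 beside 1.08). The median of the pericyte markers was 0.55 over the 3 that reached 20 CPM in the dorsal library, beside 0.69 over 4 in the ventral one. The muscle filament gene Des was 2-fold lower on the dorsal side, at 27.1 against 108 CPM (-2.00). Whether the ratios differ between sides was not tested, since each side is 1 library.

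Mfap5 was level and Plac8 lower in the selected dorsal cells. Mfap5 stood at 307 and 304 CPM in the dorsal sets (0.01) and Plac8 at 272 against 351 CPM (-0.37), beside 1.21 and 1.33 in the ventral library. Isl1 stood at 1.04 and 1.17 CPM in the dorsal sets, beside 2.61 and 1.07 CPM in the ventral ones. Timp3 (-0.30 beside -1.80), Tcf21 (-0.32 beside -1.11) and Rspo1 (-0.78 beside -2.57) were below 0 on both sides, with smaller dorsal ratios.

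Members were last compared with 3 other mesenchymal sets of the ventral library, each taken by a pair of genes. These were 584 cells with Fmod and Scx, 139 cells with Map2 and Tbx20, and 2192 cells with Gpx3 and Adamtsl2. The Fmod Scx cells were closest in elastin. Eln stood at 9540 CPM in them, 5777 CPM in Map2 Tbx20 cells and 4088 CPM in Gpx3 Adamtsl2 cells, which gave log2 ratios of members of 0.48, 1.20 and 1.70. Fbln5 ratios were 0.999, 1.14 and 2.01, Mfap5 ratios 2.04, 1.68 and 2.18, and Ackr3 ratios 1.75, 2.29 and 2.96. Tbx20 was lower in members than in each set, at -2.10, -2.19 and -1.42, as was the cardiac factor Gata4 at -1.59, -1.56 and -1.45. Tbx20 chose the Map2 Tbx20 cells, which fixed its direction against them.

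Against the Fmod Scx cells, 130 of 5402 genes (2.41%) were at least 2-fold higher in members and 70 (1.3%) at least 2-fold lower. Apart from the endothelial genes Cdh5 (4.18), Nts (4.001) and Pgf (3.74), the highest were Myh11 (77.5 against 6.38 CPM, 3.60) and Plac8 (118 against 10.2 CPM, 3.53). Of the Pgf UMIs in members, 87.3% came from endothelial-like members. The lowest were the tendon factor Scx (-3.77), which chose that set, Timp3 (141 against 1364 CPM, -3.28), Bmper (-2.97), Ahsg (-2.95) and Cpxm2 (-2.92).

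Against the Map2 Tbx20 cells, 75 of 5504 genes (1.36%) were at least 2-fold higher and 67 (1.22%) at least 2-fold lower. The lowest were Tubb3 (18.5 against 87.2 CPM, -2.23), the chemokine Ccl20 (-2.20), Prelp (-2.14) and the genes that chose that set, Tbx20 (-2.19) and Map2 (-2.14). The highest with a finite ratio were Emcn (6.30, 3.82 to 11.60), osteopontin Spp1 (5.51, 4.16 to 7.39), Cdh5 (5.27, 3.42 to 8.32) and Rgs5 (3.02), while Nts had no UMI in the 139 cells.

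Against the Gpx3 Adamtsl2 cells, 151 of 5458 genes (2.77%) were at least 2-fold higher and 107 (1.96%) at least 2-fold lower. The highest were Nts (6.74), Cdh5 (5.19), Sost (4.30), Smoc1 (24.4 against 1.61 CPM, 3.92) and Emcn (3.69). The lowest were Adamtsl2 (-2.93), which chose that set, Rhox5 (-2.81), the sodium channel gene Scn7a (-2.80), Gsta3 (-2.67) and secretogranin Scg2 (-2.60). Tcf21 stood at 57.6 CPM in members and 254 CPM in the Gpx3 Adamtsl2 cells (-2.14), and at 34.5 CPM in the Fmod Scx cells (0.74).

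**Figure D5:**
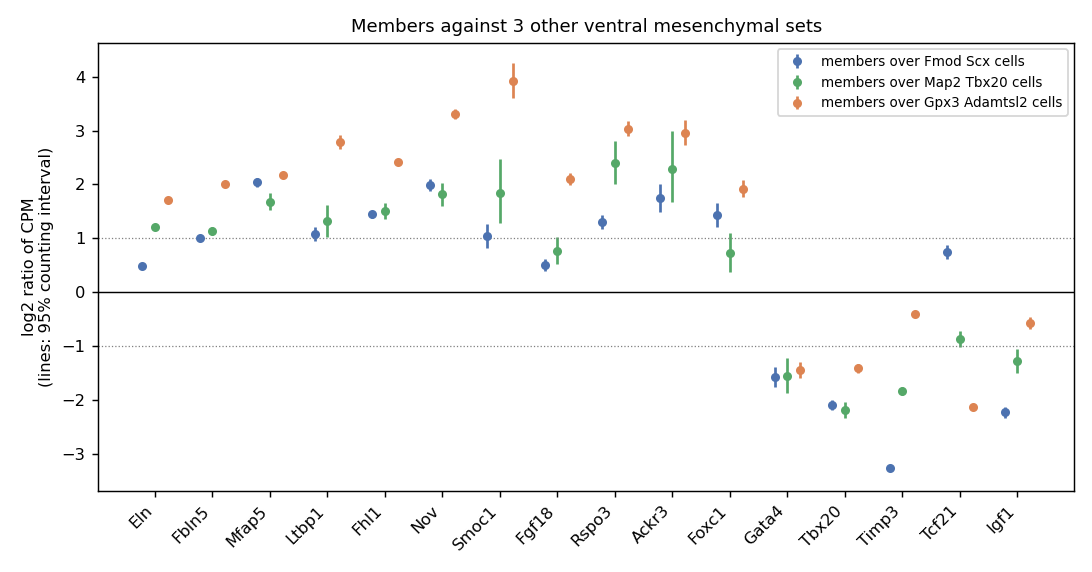
Log2 ratios of members over 3 other ventral mesenchymal sets for 16 genes, with 95% counting intervals and dotted lines at 2-fold. Eln, Fbln5, Mfap5, Ltbp1 and Ackr3 are above 0 against all sets, while Tbx20, Gata4, Timp3 and Igf1 are below 0 against all sets and Tcf21 changes side.

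Depth, shared barcodes and library identity bear on these values as follows. The ventral matrix held 264822916 UMIs and the dorsal one 246920028, and 253103590 and 229117951 of these lay in the cells used. The libraries shared 22 cell barcodes, 1 of which belonged to a member.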

How the data were processed

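The data are 1 single-cell library of each side of the heart base. The authors deposited raw UMI counts of every barcode (6794880) over 28692 genes, with no choice of cells. Per the submitters' processing notes they used Cell Ranger 3.0.2 and mm10. The annotation release is not given in the sources used here. Positions come from GENCODE M21, which matched 28416 gene IDs, and promoters from RefSeq on GRCm38.p6.

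The members, gene lists and comparisons were chosen with earlier results of these data known. Cells were summed per set and scaled to CPM. Intervals were Clopper-Pearson for shares and exact conditional binomial for ratios, at 95%, and cover counting error only. No p-value was computed. Genes at 20 CPM or more on either side were counted at 2-fold, a size and not a call. Where a set had no UMI of a gene, 3 counts stood in for it when genes were counted.

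Clusters came from scanpy 1.11.5 (2000 variable genes, 30 principal components, 15 neighbours, Leiden resolution 1.0). A cluster took a cell type name from marker lists. Doublets were kept, since the rule names none, and Scrublet served as an alternative. Its automatic threshold marked 5.83% of ventral and 0% of dorsal barcodes. Having failed in the dorsal library, it was replaced there by the 7.39% with the highest scores. Macrophage marker cells had at least 3 macrophage markers at 2 UMIs or more. Fmod Scx cells had at least 3 Fmod UMIs and 1 Scx UMI, the other sets at least 2 UMIs of both genes. Members and cells in more than 1 set were left out of all.

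Named genes were the 15 highest and 10 lowest against other ventral cells and the 5 highest and 5 lowest against each mesenchymal set, leaving out mitochondrial, ribosomal and provisional names and the 4 genes of the rule. Eln, Fbln5 and list members were added by size or role. The interval code was tested on simulated data.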

Additional observations from a re-analysis of the deposited data

How the results depend on the processing

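No paired analysis was possible because each side is 1 library. The member share of 28.4% was 15.8% with cells thinned to 8000 UMIs, 16.6% with at least 2 UMIs of each gene, 21.8% with 0 Fmod UMIs and 31.5% with no limit on Fmod. The 49 higher and 77 lower genes became 1280 and 3557 with no CPM minimum, and 15 and 17 with a minimum of 100 CPM. Against other cells with 3 smooth muscle markers, 27 genes were higher. Under the other alternatives, including the leaving out of clusters, which was chosen after seeing the data, 38 to 73 genes were higher and 54 to 105 lower. TMM scaling by edgeR 4.0.16 moved the median log2 ratio from -0.05 to 0.01. Of the 25 named genes with Eln and Fbln5, 23 kept their sign in all 18 alternatives and 10 stayed at 2-fold or more. The ratio turned for Cdh5 (-0.95) and Nts (-0.014) with thinned cells, and for Efemp1 (0.42), Lrrn4 (0.21) and Upk3b (0.046) without all named clusters. Other causes of these shifts were not tested. Levels under about 1 CPM rest on few UMIs.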

Other observations

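Hox cluster genes, which record the position of mesoderm and neural crest along the body axis, were looked at after 3 of them were seen among the genes at 2-fold. Of 39 annotated Hox genes, 3 reached 20 CPM in the ventral comparison, and they did so only in the summed members. Having been taken up because they were already at 2-fold, they are described singly and nothing is read from their count. Hoxa5 stood at 24.3 CPM in members and 9.40 CPM in the other ventral cells, a log2 ratio of 1.37 (1.27 to 1.47). Hoxb4 stood at 23.5 against 10.4 CPM (1.18) and Hoxb2 at 31.3 against 15.3 CPM (1.03). Below 20 CPM, Hoxa3 stood at 18.5 against 5.69 CPM (1.70), Hoxa4 at 9.36 against 2.80 CPM (1.74) and Hoxb3 at 16.0 against 7.10 CPM (1.17). Some Hox genes under 1 CPM were level or lower in members. Hoxb7 stood at 0.04 and Hoxc6 at -0.006 on the log2 scale, while Hoxc4 (-0.45), Hoxb9 (-1.60) and Hoxc13 (-2.34, -3.83 to -1.15) were below 0.

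Hoxb4 stood at 26.7 CPM in members of cluster 1, 19.1 CPM in smooth muscle-like members and 14.8 CPM in endothelial-like members. Endothelial-like non-members held 16.1 CPM of it and free RNA 9.73 CPM. A Hoxb4 UMI was found in 36.1% of members, 16.3% of other ventral cells, 11.03% of macrophage marker cells and 26.8% of glial marker cells. In thinned cells these shares were 16.9%, 7.16%, 5.52% and 13.4%. In the Fmod Scx, Map2 Tbx20 and Gpx3 Adamtsl2 cells it stood at 3.40, 4.95 and 4.17 CPM. Dorsal cells that met the thresholds had 20.1 CPM of Hoxb4 against 14.3 CPM in the other dorsal cells (0.49), and Hoxa5 stood at 39.3 against 35.6 CPM there (0.14). Hotairm1, a noncoding RNA of the HoxA cluster, stood at 36.6 against 15.9 CPM in the ventral library (1.20).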
